A study of Homo sapiens with 3 samples.

Results

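The genes described here are the human matrix metalloproteinases (MMP), the ADAM and ADAMTS metalloproteinases, and their tissue inhibitors (TIMP). They were chosen by name among the protein-coding genes of the count files: MMP, ADAM or ADAMTS followed by a number, and TIMP1 to TIMP4. The rule found 65 of 58735 genes, or 65 of the 19951 protein-coding genes: 22 MMP, 20 ADAM, 19 ADAMTS and 4 TIMP genes. RNA-seq had been performed on 3 libraries of DU145, an established human prostate cancer cell line that grows without androgen. Cells of the control library carried the empty lentiviral vector pLKO.1. The 2 other libraries, labelled PD-L1 knockdown 1 and 2, came from cells that carried pLKO.1 with a short hairpin RNA (shRNA) against PD-L1, a membrane ligand that restrains T cells and is encoded by CD274. All cells had been selected with puromycin as stable lines. The methods call the sequenced knockdown cells PD-L1sh1/2, read here as 1 line per shRNA, and print 1 hairpin sequence. The comparison asked which genes differ once PD-L1 is silenced in castration-resistant prostate cancer cells.

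Sequencing gave 14733088 counts on genes for the control, 14738298 for the library labelled knockdown 1 and 15786457 for the library labelled knockdown 2. CD274 had 204, 213 and 224 counts in the same order, so the transcript was not lower in the libraries labelled knockdown. Every library is therefore named by its label. The paper reports that knockdown was checked at the protein level, by Western blots of the stable lines, DU145 among them. The counts used here are of RNA only and do not show the protein level. RBM45 stands in the header of the control's counts, and the series text names the cell line BCPAP. Of the markers of DU145 as an epithelial line, EPCAM, CDH1, KRT8, KRT18 and KRT19 were detected and KRT5 was at 0. KLK3, KLK2 and TMPRSS2, markers of androgen-dependent prostate cells, were at 0. Of 6 fibroblast markers, DCN and LUM were at 0 and the summed counts were 108, 102 and 156, most of them COL1A1. Leukocyte and endothelial markers summed to at most 18 and 13 counts per library, with CD3E at 0. Of the thyroid markers, which were looked at because BCPAP is a thyroid cancer line, TG had 3 to 15 counts and NKX2-1 had 1833, 2118 and 2590. The control had no replicate, so the spread in every test came from the libraries labelled knockdown, read here as made with different shRNAs.

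MMP, ADAM and ADAMTS proteins are zinc-dependent proteases that are made as inactive precursors. Secreted and membrane-type MMPs cut collagens, laminins and other matrix proteins, ADAMs release growth factors and receptors from the cell surface by cutting them near the membrane, and ADAMTS proteins cut proteoglycans, procollagens and von Willebrand factor. TIMPs bind the active site and block it. In prostate cancer these proteins are studied for their parts in invasion and in the release of growth factors.

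Most of the proteases were silent or close to it in these cells. Of the 65 genes, 17 had 0 counts in every library, 9 had between 1 and 9 counts summed over the libraries, and 39 had at least 10 summed counts and were tested. Only 19 of them had a mean of at least 100 counts and are called well counted below: 9 ADAM, 3 ADAMTS, 5 MMP and 2 TIMP genes. A count of 0 allows a level of up to 0.204, 0.204 and 0.190 CPM (counts scaled to the library total) in the control and in the libraries labelled knockdown 1 and 2. These limits, like the 95% intervals given with the ratios of single libraries, cover counting error only. In bulk RNA, fewer cells with a transcript and less of it per cell cannot be told apart.

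The genes at 0 included some that are studied most in tumour invasion. Among the MMPs these were MMP2 (gelatinase A), MMP7 (a matrilysin), MMP8 (the neutrophil collagenase), MMP10 (a stromelysin), MMP12 (the macrophage elastase), MMP20 (the enamel protease), MMP26 (a matrilysin) and MMP27. The ADAM genes at 0 were ADAM2, ADAM7, ADAM18, ADAM29, ADAM30 and ADAM33, which apart from ADAM33 are best known from testis and epididymis. Also at 0 were ADAMTS5, a major aggrecan-cutting protease of cartilage, ADAMTS18, and TIMP3, the inhibitor that is held in the matrix. The 9 genes with 1 to 9 summed counts were ADAM28, ADAMTS1, ADAMTS19, ADAMTS20, MMP3, MMP16, MMP19, MMP21 and MMP25, and none of them had more than 5 counts in a library. MMP9 (gelatinase B) had 5, 4 and 7 counts, so both gelatinases were at or near the floor.

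Some members that lie side by side in the genome had very different levels. Of 7 groups of members less than 200 kb apart, 3 held 1 well-counted gene each, and the other 4 (ADAM20 and ADAM21, ADAMTS1 and ADAMTS5, ADAM28 and ADAM7, ADAM18 and ADAM2) held none. On chromosome 11 of GRCh38, 9 MMP genes lie between positions 102520508 and 102955734, and 6 of them were at 0 in every library. Of this group only MMP1, the interstitial collagenase, was well counted, with 230, 289 and 240 counts. Its neighbours MMP3 (stromelysin 1) and MMP13 (collagenase 3) had 3, 0 and 3 and 3, 3 and 6 counts. The same contrast held for ADAM9 and ADAM32, which lie together on chromosome 8 between positions 38996869 and 39284911: ADAM9 had 13517, 12668 and 13300 counts and ADAM32 had 12, 19 and 12. ADAMTS15 and ADAMTS8 lie together on chromosome 11 between positions 130404925 and 130476641, with 131, 154 and 200 counts for ADAMTS15 and 0, 7 and 3 for ADAMTS8.

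**Figure D1:**
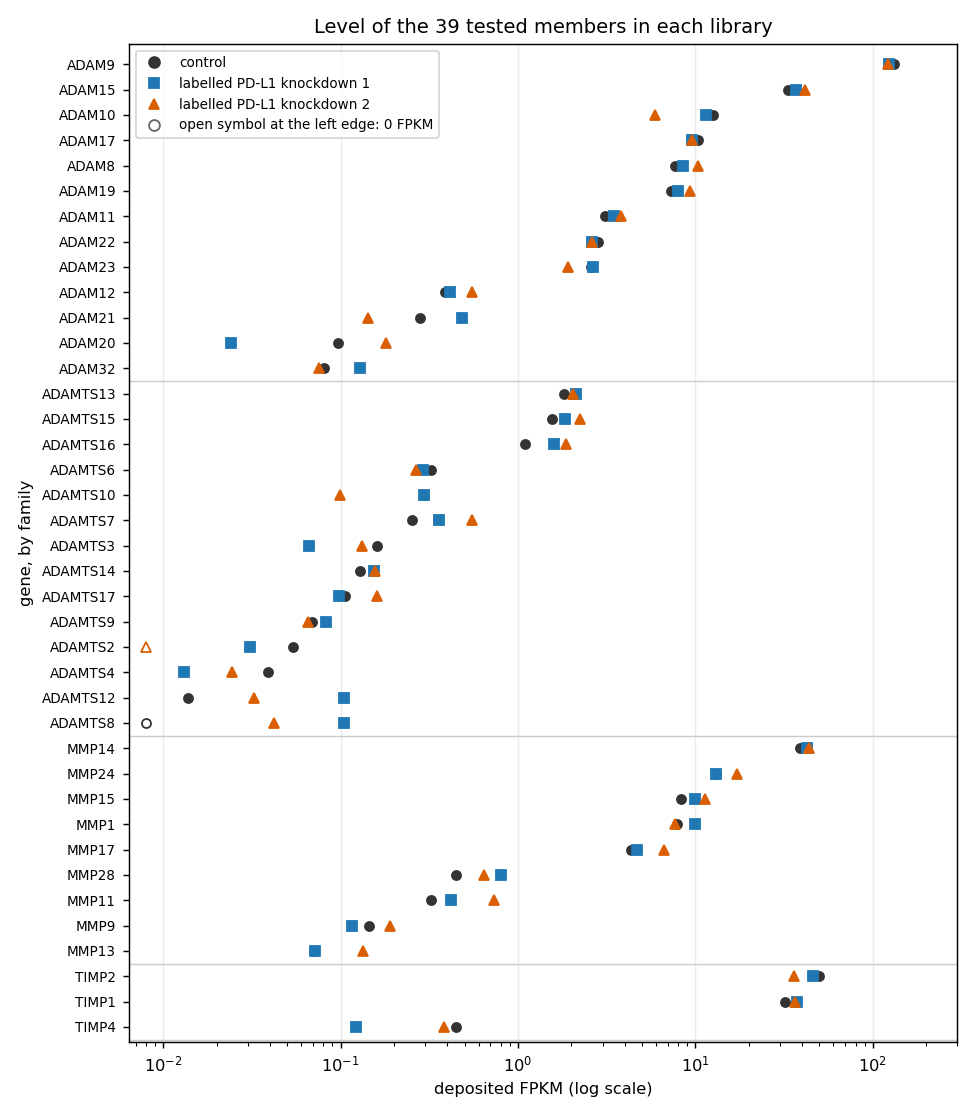
Deposited FPKM of the 39 tested genes on a log axis, grouped by family and ordered by the control, with 1 symbol per library and open symbols at the left edge for 0 FPKM. ADAM9 lies highest at 122 to 132 FPKM, the other well-counted genes lie above 1 FPKM, and ADAM10 is the well-counted gene whose library labelled knockdown 2 lies farthest from its control.

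A few genes supplied most of the protease transcripts. On the per-length scale (FPKM, fragments scaled by gene length and library size), the 61 proteases summed to 291, 297 and 304 FPKM in the control and in the libraries labelled knockdown 1 and 2. ADAM9 alone took 45.2%, 41.7% and 40.1% of these sums. ADAM9, ADAM15, MMP14 and MMP24 together took 74.4%, 72.9% and 73.8%. The ADAM genes summed to 212, 208 and 207 FPKM, the MMP genes to 73.5, 81.8 and 88.6, the ADAMTS genes to 5.93, 7.17 and 7.74, and the TIMP genes to 82.4, 83.7 and 73.0. The sums thus moved by less than 1.5-fold between libraries in every family.

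ADAM9, a membrane protease that cuts cell-surface proteins, had the highest level of all members. It was at 132, 124 and 122 FPKM, more than the next gene in any library. Among the proteases, MMP14 (38.8, 42.7 and 43.9 FPKM) lay above ADAM15 (33.4, 37.0 and 41.3 FPKM) in each library, but the ranges of these neighbours overlapped. MMP24 (13.0, 13.1 and 17.1 FPKM) was the next protease. ADAM10 (12.5, 11.5 and 5.91 FPKM) lay above ADAM17 (10.3, 9.61 and 9.51 FPKM) in the control and in the library labelled knockdown 1, and below it in the library labelled knockdown 2. MMP15, MMP1, ADAM8 and ADAM19 lay between 7.30 and 11.3 FPKM in every library, with overlapping ranges. The FPKM use the listed gene length, which joins the exons of all transcripts, so that genes with many long untranslated exons appear lower than by their coding transcript.

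Of the 20 ADAM genes, 12 encode the zinc-binding motif of an active protease by a search of their longest coding sequence, and 6 of these were well counted: ADAM8, ADAM9, ADAM10, ADAM15, ADAM17 and ADAM19. The other 8 lack it, and 3 of these were well counted: ADAM11, ADAM22 and ADAM23, which are known as adhesion proteins of the nervous system. The motif holds 3 histidines that grip the zinc ion at fixed spacing, and it is the feature shared by the ADAM and MMP families. The coding sequences below are shown because they mark which of the expressed ADAMs can act as proteases and let the membrane-type MMPs be set beside them. ADAM9 has the motif too, and its sequence is not shown. They were taken from GENCODE release 29 on GRCh38, are written 5′ to 3′ on the coding strand, and carry the codons of the 3 histidines in capitals.
ADAM10: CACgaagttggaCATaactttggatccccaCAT
ADAM17: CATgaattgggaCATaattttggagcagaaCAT
ADAM15: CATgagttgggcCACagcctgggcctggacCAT
ADAM8: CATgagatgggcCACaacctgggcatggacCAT
ADAM19: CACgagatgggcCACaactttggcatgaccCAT
MMP14: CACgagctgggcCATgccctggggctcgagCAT
MMP15: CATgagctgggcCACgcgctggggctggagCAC
MMP24: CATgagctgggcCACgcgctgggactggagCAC

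The motif of ADAM17 lies at chr2:9510078-9510110 (minus strand), that of ADAM15 at chr1:155056995-155057027 (plus strand), that of ADAM8 at chr10:133271880-133271912 (minus strand) and that of ADAM19 at chr5:157505734-157505766 (minus strand), each inside exon 11 of the transcript used. In ADAM10 an intron splits it, so that its bases lie within chr15:58627881-58633225 (minus strand). The motifs of MMP14 at chr14:22843283-22843315, MMP15 at chr16:58040563-58040595 and MMP24 at chr20:35263817-35263849 lie in exon 5, all on the plus strand. The spacing of the capitals was part of the search and is the same in all.

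ADAM10 was the member called by the adjusted test, with a low count in the library labelled knockdown 2 alone. It encodes the protease that cuts Notch receptors, E-cadherin and several growth factor precursors at the cell surface, and lies on chromosome 15, positions 58588807 to 58749978, on the minus strand. Its count was 2992 in the control, 2753 in the library labelled knockdown 1 and 1509 in the library labelled knockdown 2 (203, 187 and 95.6 CPM). The library labelled knockdown 2 was low and the other two were close to each other. In the quasi-likelihood test of edgeR, adjusted over all genes by Benjamini-Hochberg, ADAM10 fell by 0.52 on the log2 scale in the libraries labelled knockdown (SE 0.12, adjusted p = 0.00689). Of the 39 tested members it was the only one at an adjusted p under 0.05, or 2.56% of them, beside 0.353% of all 19849 genes tested.

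The mean fold of ADAM10 joins unlike libraries. Its scaled ratio to the control was 0.924 (95% interval 0.877 to 0.974) in the library labelled knockdown 1 and 0.471 (0.442 to 0.501) in the library labelled knockdown 2, and the second library stood at 0.510 (0.478 to 0.543) of the first. Among 10861 well-counted genes of the whole series, 4 had a lower ratio of knockdown 2 to control than ADAM10, and 4 had a lower ratio of knockdown 2 to knockdown 1. In the ratio of knockdown 1 to control, 2773 genes were lower. The fit gave all genes of like count the same spread (prior degrees of freedom Inf), so the difference between the libraries labelled knockdown does not enter the SE of ADAM10. The adjusted p was 0.281 with a minimum of 30 counts, 1.00 by DESeq2, 0.244 by the newer quasi-likelihood method and 0.526 after length and GC trends were removed.

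The longest ADAM10 transcript has a low GC content (38.3%). Genes of low GC content were lower in the libraries labelled knockdown across the whole series. Against this background ADAM10 was set beside the 237 well-counted genes within 2 points of its GC content and within 1.5-fold of its length. In the ratio of knockdown 2 to control these genes had a median log2 value of -0.25 and a lowest value of -0.65, and ADAM10 was at -1.09, below all of them. In the ratio of knockdown 1 to control their median was -0.14, ADAM10 was at -0.11, and 136 of them were lower. The value in the library labelled knockdown 2 was outside the range of like genes and the value in the library labelled knockdown 1 was in the middle of it. ADAM10 was singled out by its low count in the library labelled knockdown 2, so its place among like genes there is a description only. The part of GC content in its value was not tested by this.

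ADAM17, the TNF-alpha converting enzyme and the sheddase most like ADAM10 in substrates, had 1637, 1527 and 1616 counts. The control was highest and the libraries labelled knockdown were close to each other. Its ratios to the control were 0.937 (0.873 to 1.01) and 0.922 (0.860 to 0.988), and its fitted log2 fold change was -0.11 (SE 0.12, adjusted p = 0.788, edgeR). Its longest transcript has a GC content of 38.5%, close to that of ADAM10. Of its exon bases, 13.6% overlap IAH1 (539, 533 and 650 counts) or AC073195.1 on the opposite strand. Whether the counting used the strand is not given in the sources used here, so reads of these genes may be mixed. ADAM9, also of low GC content (39.4%), had ratios of 0.941 (0.919 to 0.964) and 0.919 (0.897 to 0.941) and a fitted log2 fold change of -0.10 (SE 0.11, adjusted p = 0.739, edgeR). ADAM10 was therefore lower than both in the library labelled knockdown 2, with intervals that did not overlap, and close to both in the library labelled knockdown 1.

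The 3 other well-counted ADAM proteases had ratios above 1 in both libraries labelled knockdown, without passing the test. ADAM15, which carries an integrin-binding sequence, had 3262, 3599 and 4295 counts, with ratios of 1.11 (1.06 to 1.16) and 1.23 (1.17 to 1.29). ADAM8, best known from leukocytes, had 544, 602 and 775 counts, and ADAM19, which cuts neuregulin precursors, had 835, 905 and 1137. Their fitted log2 fold changes were 0.23, 0.29 and 0.24 with SE of 0.12 to 0.15, and the adjusted p were 0.431, 0.450 and 0.5 by edgeR, so these differences did not pass the test. Of the ADAMs without the zinc motif, ADAM11 had 218, 244 and 289 counts and ADAM22 had 509, 470 and 504. ADAM23 had 246, 252 and 194 counts, with ratios of 1.03 (0.860 to 1.23) and 0.737 (0.607 to 0.893): the library labelled knockdown 2 alone was low, and the adjusted p of the joint fit was 0.761 (edgeR).

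Among the MMPs, the membrane-type enzymes made up nearly all transcripts, at 64.5, 70.5 and 79.0 FPKM of the 73.5, 81.8 and 88.6 FPKM of the family. MMP14, the membrane-type collagenase that also activates MMP2, had 2571, 2821 and 3094 counts, with ratios of 1.10 (1.04 to 1.16) and 1.12 (1.07 to 1.18). The control was lowest and the libraries labelled knockdown did not differ beyond counting error (ratio of the second to the first 1.02, 0.969 to 1.07). Its fitted log2 fold change was 0.15 (SE 0.12, adjusted p = 0.641, edgeR). MMP2, the precursor that MMP14 and TIMP2 activate together on the cell surface, was at 0 in every library.

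The 3 other well-counted membrane-type genes were highest in the library labelled knockdown 2, and MMP16 and MMP25 had at most 2 counts in a library. MMP15 had 545, 647 and 789 counts, with ratios of 1.19 (1.06 to 1.34) and 1.35 (1.21 to 1.51). MMP17, which is held in the membrane by a lipid anchor, had 258, 277 and 423 counts, with ratios of 1.08 (0.907 to 1.28) and 1.53 (1.31 to 1.79). MMP24 had 853, 857 and 1193 counts, with ratios of 1.01 (0.917 to 1.11) and 1.31 (1.2 to 1.43). For MMP17 and MMP24 the control and the library labelled knockdown 1 were alike within counting error and the library labelled knockdown 2 stood above both. None passed the adjusted threshold (adjusted p = 0.343, 0.382 and 0.565 for MMP15, MMP17 and MMP24, edgeR). Of the exon bases of MMP24, 21.8% overlap MMP24OS (918, 994 and 1087 counts) or AL121753.2 on the opposite strand, so its count is uncertain in the same way as that of ADAM17.

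MMP1 differed from the membrane-type genes, being highest in the library labelled knockdown 1. Its 230, 289 and 240 counts gave ratios of 1.26 (1.06 to 1.51) and 0.975 (0.810 to 1.17), and the adjusted p was 0.798 (edgeR). Of the stromelysins, MMP11, which is best known from tumour stroma, had 25, 32 and 60 counts. Among the MMPs outside the named classes, MMP28 had the highest level, with 19, 34 and 29 counts. Both were below the level at which ratios are read here, and neither passed the adjusted threshold (adjusted p = 0.460 and 0.638, edgeR).

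The ADAMTS genes were low throughout, and 3 of 19 were well counted. ADAMTS13, the protease of von Willebrand factor, had 154, 180 and 185 counts, and ADAMTS15, a proteoglycan-cutting member, had 131, 154 and 200. ADAMTS16 had 96, 139 and 173 counts, with ratios of 1.45 (1.11 to 1.91) and 1.68 (1.30 to 2.18). The control was lowest and the libraries labelled knockdown did not differ beyond counting error (1.16, 0.92 to 1.46). Its fitted log2 fold change of 0.65 (SE 0.25) was the highest among the well-counted members, with an adjusted p of 0.248 by edgeR. The GC content of its longest transcript is 54.3%. The trends of length and of GC content over all tested genes, added together, gave it log2 ratios of 0.03 and 0.06 to the control.

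ADAMTS8 was the only member past an unadjusted p under 0.05 with an absolute log2 fold change above 1. That is 1 of 39 tested members, beside 2.48% of all genes tested. It had 0, 7 and 3 counts. Against a floor of 3 counts in the control, its 7 counts in the library labelled knockdown 1 gave a ratio of 2.34. The 95% interval of its ratio to the control started lower, at 1.45. In the library labelled knockdown 2 its count was at the floor, and the interval started at 0.386. The adjusted p was 0.376 (edgeR). The members that reached the highest level in the remaining ADAMTS classes were ADAMTS3, one of the procollagen-processing enzymes, with 17, 7 and 15 counts, and ADAMTS7 with 29, 41 and 67. Of the sequence words of 31 bases in ADAMTS7 transcripts, 26.6% also occur in other genes, mostly its pseudogene ADAMTS7P1, so its count is uncertain.

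TIMP2 and TIMP1 were the inhibitors expressed. TIMP2, which inhibits most MMPs and takes part in the activation of MMP2 by MMP14, had a count of 4184 in the control, 3846 in the library labelled knockdown 1 and 3210 in the library labelled knockdown 2 (50, 46.2 and 36.1 FPKM). The control was highest and the library labelled knockdown 2 lowest. Its ratios to the control were 0.923 (0.883 to 0.965) and 0.717 (0.684 to 0.75), and the fitted log2 fold change was -0.29 (SE 0.11, adjusted p = 0.274, edgeR). The GC content of its longest transcript is 53.7%. The trends of length and of GC content over all tested genes, added together, gave it log2 ratios of 0.03 and 0.06, on the other side of 0. Of its exon bases 10.0% overlap AC022966.1 or CEP295NL.

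TIMP1, which inhibits most soluble MMPs and also ADAM10, had 730, 851 and 891 counts (31.9, 37.4 and 36.6 FPKM). The control was lowest and the libraries labelled knockdown did not differ beyond counting error (0.974, 0.885 to 1.07). Its ratios were 1.17 (1.06 to 1.29) and 1.14 (1.03 to 1.26), and its fitted log2 fold change was 0.21 (SE 0.14, adjusted p = 0.596, edgeR). TIMP2 lay above TIMP1 in the control by 50 to 31.9 FPKM, and the genes were alike in the library labelled knockdown 2 at 36.1 and 36.6 FPKM. TIMP4 had 11, 3 and 10 counts and TIMP3 was at 0.

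**Figure D2:**
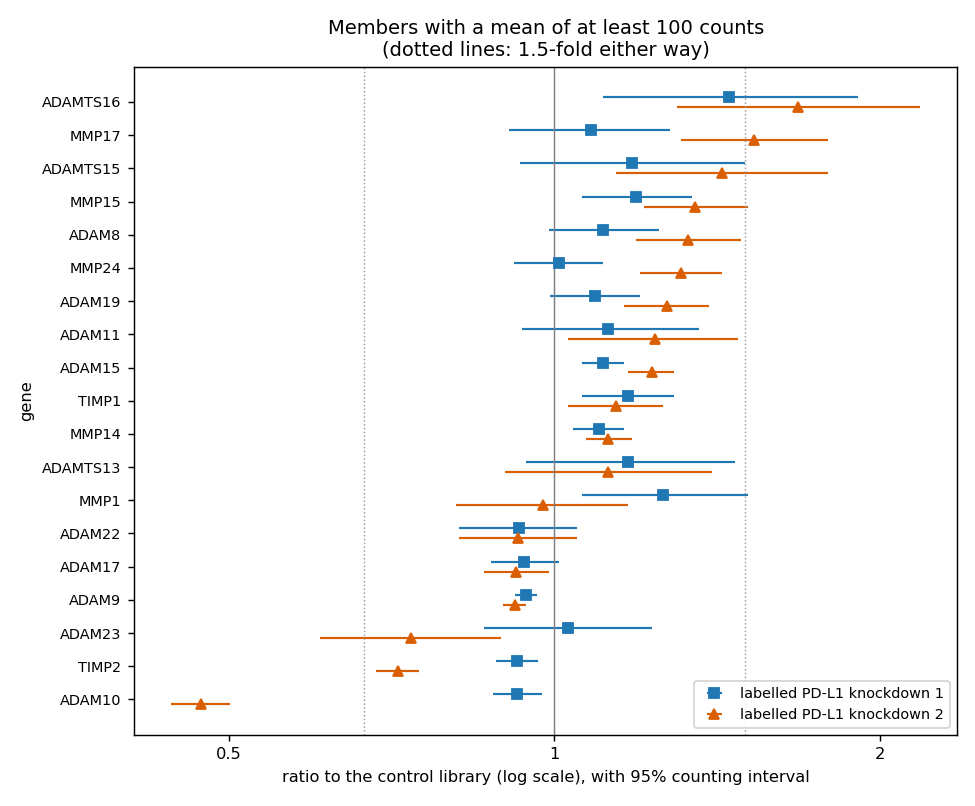
Ratio of each library labelled knockdown to the control for the 19 well-counted members, on a log axis, with the exact 95% interval for counts and dotted lines at 1.5-fold in either direction. In the library labelled knockdown 2, ADAM10 lies at 0.471, TIMP2 at 0.717 and ADAM23 at 0.737, while ADAMTS16 at 1.68 and MMP17 at 1.53 lie beyond 1.5-fold; no member does so in the library labelled knockdown 1.

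Across the set, the library labelled knockdown 2 stood farther from the control than the library labelled knockdown 1. Beyond 1.5-fold of the control were 0 of 19 well-counted members in the library labelled knockdown 1, beside 1.23% of all well-counted genes, and 3 in the library labelled knockdown 2 (ADAM10, ADAMTS16 and MMP17), beside 3.46% of all. Between the libraries labelled knockdown, ADAM10 alone differed beyond 1.5-fold, beside 1.16% of all. At an unadjusted p under 0.05 were 7 of the 39 tested members, or 17.9%, 5 of them higher and 2 lower, beside 11.7% of all genes tested. The median fitted log2 fold change of the 19 well-counted members was 0.21, with 13 above 0 and 6 below, and that of all well-counted genes was 0.00.

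The direction of the members went with the GC content of their longest transcripts, as that of all genes did. The Spearman correlation of the log2 ratio with GC content over the 19 well-counted members was 0.51 for knockdown 1 against control and 0.72 for knockdown 2 against control. Over 10859 well-counted genes of known GC content it was 0.53 and 0.69. The points share libraries and are given as a description. In the ratio of knockdown 2 to control, the 10 members with a GC content of at least 55% had a median log2 value of 0.35 and the 6 members under 45% a median of -0.12, beside 0.25 and -0.18 for all genes in these ranges. In the fit with length and GC trends removed, the log2 fold changes came nearer to 0 for ADAM15 (0.06), ADAM8 (0.06), MMP15 (0.09), MMP17 (0.16), MMP24 (0.04), TIMP1 (0.01) and ADAM10 (-0.29). MMP14, ADAM9, ADAM17, ADAM22 and ADAMTS13 changed sign there. The values of ADAMTS16 (0.61), ADAM19 (0.24) and TIMP2 (-0.33) stayed close to those with the trends left in (0.65, 0.24 and -0.29). The part of GC content in these differences was not tested otherwise.

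**Figure D3:**
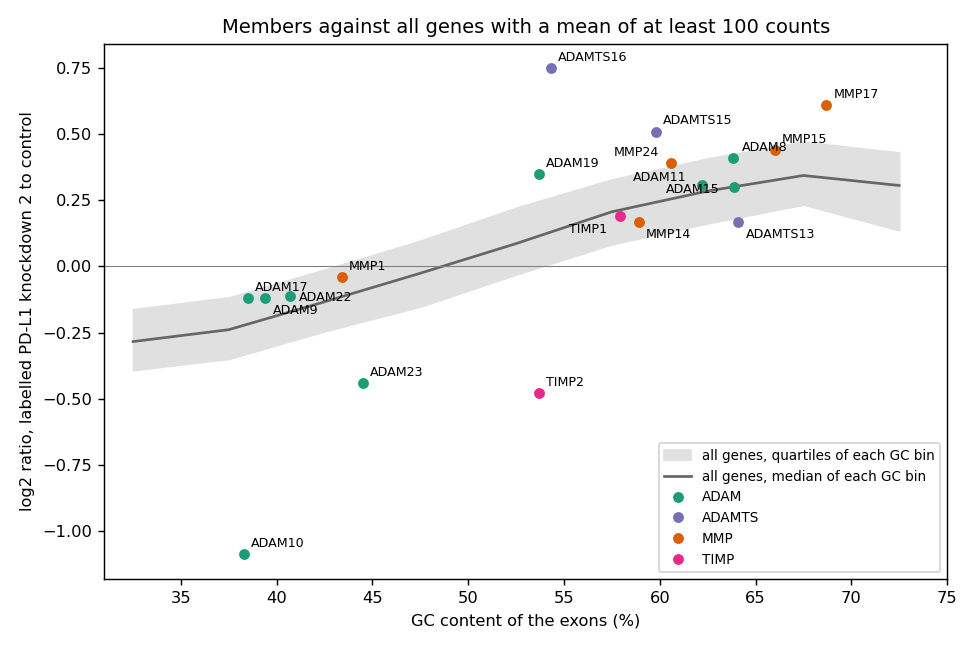
Log2 ratio of the library labelled knockdown 2 to the control against the GC content of the longest transcript (named exons on the axis), for the 19 well-counted members (points, coloured by family) and for all well-counted genes (line: median of each GC bin, grey band: from the lower to the upper quartile). ADAM10 at -1.09, TIMP2 and ADAM23 lie farthest below the band and ADAMTS16 lies farthest above it.

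The genes that act with the proteases were examined as 6 lists with 114 genes, of which 113 were found and 92 tested. By edgeR, 0 of the 92 passed an adjusted p of 0.05 and 0 passed the unadjusted threshold with the fold, while 10 were higher and 5 lower at an unadjusted p under 0.05, beside 11.7% of all genes. DESeq2 likewise called 0 at the adjusted threshold. The median fitted log2 fold change of the 92 genes was 0.07.

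Of the partners of the ADAM sheddases, 12 of 12 were tested, with 0 higher and 1 lower at an unadjusted p under 0.05. That gene was DLG1, a scaffold protein that binds ADAM10, with 3902, 3410 and 3133 counts and a fitted log2 fold change of -0.30 (SE 0.11, adjusted p = 0.255, edgeR). The iRhoms, which carry ADAM17 to the cell surface, differed in the library labelled knockdown 2. RHBDF2 had 829, 813 and 592 counts, with ratios of 0.985 (0.893 to 1.09) and 0.667 (0.599 to 0.742). RHBDF1 had 430, 435 and 662 counts, with ratios of 1.02 (0.887 to 1.16) and 1.44 (1.27 to 1.63). In both genes the control and the library labelled knockdown 1 were alike, and their longest transcripts have the same GC content (62.9%). Of the tetraspanins that carry ADAM10, TSPAN5 had 955, 859 and 982 counts, TSPAN14 had 910, 886 and 966, TSPAN15 had 735, 682 and 1018, TSPAN17 had 965, 1036 and 1048 and TSPAN33 had 472, 538 and 594. On the FPKM scale the library labelled knockdown 2 was the lowest for none of these 5 genes, while it was the lowest for ADAM10.

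Of the surface proteins shed by ADAMs, 24 of 27 were tested, 2 higher and 2 lower at an unadjusted p under 0.05, with a median fitted log2 fold change of 0.04. IL6R, the interleukin-6 receptor, had 755, 801 and 1183 counts (log2 fold change 0.34, SE 0.14, adjusted p = 0.307, edgeR). MICA, a ligand of the NKG2D receptor of natural killer cells, had 411, 496 and 573, and EREG, an epidermal growth factor family member, had 2276, 1867 and 2077. Transcript counts do not measure how much of these proteins is cut. Of the substrates that ADAM10 cuts in many tissues, 4 gave no common direction. NOTCH1 had 472, 474 and 547 counts (ratios 1.01 and 1.08) and NOTCH2 had 1594, 1418 and 1536 (0.894 and 0.9). CDH1 had 2384, 2072 and 2940 counts (ratios 0.873 and 1.15) and CD44 had 2542, 2366 and 2494 (0.935 and 0.916). None of these passed the adjusted threshold.

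Among the activators and inhibitors of the proteases, 20 of 25 genes were tested, 4 higher and 0 lower at an unadjusted p under 0.05. SPINT2, an inhibitor of serine proteases such as matriptase, had 4060, 4934 and 5600 counts (log2 fold change 0.33, SE 0.11, adjusted p = 0.201, edgeR). ST14, which encodes matriptase, had 306, 351 and 435, and SERPINE2, an inhibitor of plasminogen activators and thrombin, had 326, 262 and 265. FURIN, the convertase that activates the membrane-type MMPs and many ADAMs, had 1561, 1866 and 2066 counts. RECK, a membrane inhibitor of MMPs and ADAM10, had 384, 386 and 439. SPINT2, ST14 and FURIN were lowest in the control, and none of them passed the adjusted threshold. Their GC contents are 55.6%, 62.8% and 61.7%, where the median gene was higher in the libraries labelled knockdown.

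Of 20 matrix substrates 14 were tested, 1 higher and 1 lower at an unadjusted p under 0.05. BCAN, which encodes brevican, a substrate of ADAMTS proteoglycanases, had 175, 131 and 126 counts (log2 fold change -0.49, SE 0.23, adjusted p = 0.369, edgeR). COL4A2, a basement membrane collagen, had 728, 900 and 976, and COL1A1 had 101, 98 and 149. The laminin chains LAMB3 (8965, 9703 and 11569 counts) and LAMA3 (7899, 7439 and 8821) were the most counted of the list. Of the ADAMTS-like and related genes, 9 of 16 found were tested, 1 higher and 0 lower. ECE1 had 3692, 4000 and 5145 counts, BMP1, a procollagen C-proteinase, had 1205, 1262 and 1703, and ADAMTSL5 had 207, 233 and 238.

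All 13 AP-1 and ETS factors, which bind the promoters of several MMP genes, were tested, 2 higher and 1 lower at an unadjusted p under 0.05. JUNB had 388, 544 and 684 counts, with ratios of 1.41 (1.23 to 1.61) and 1.65 (1.45 to 1.87). The control was lowest, and the fitted log2 fold change of 0.61 (SE 0.16) just missed the threshold with an adjusted p of 0.0508 by edgeR. JUND had 1022, 1244 and 1494 counts, and ETV5, an ETS factor, had 1002, 902 and 731. JUNB and JUND have GC contents of 64.9% and 69.7%, where the median gene was higher in the libraries labelled knockdown.

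**Figure D4:**
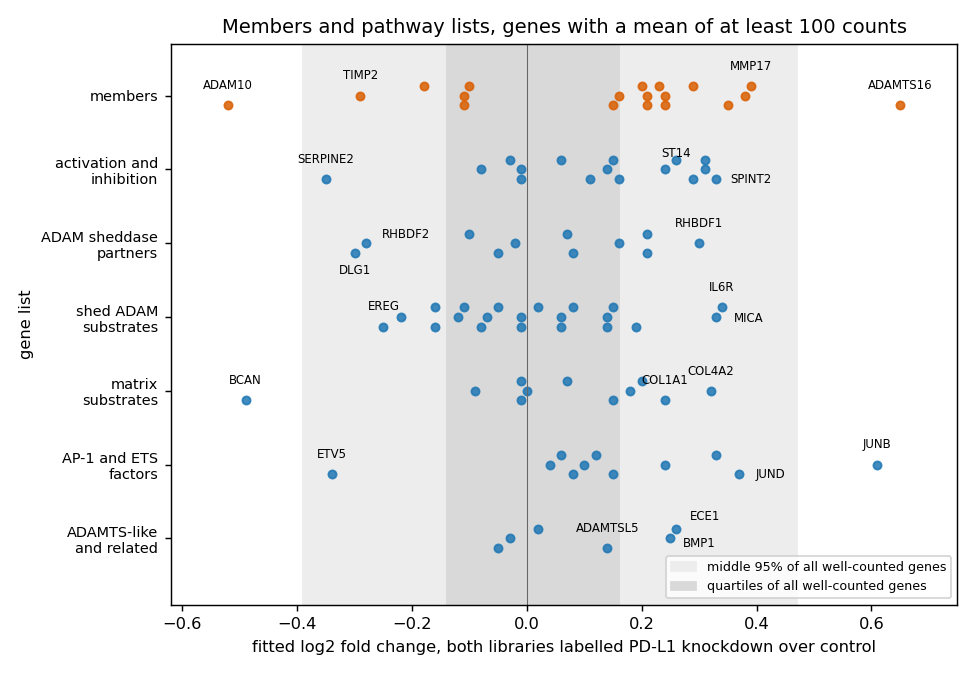
Fitted log2 fold change of the libraries labelled knockdown over the control for the 19 well-counted members (top row) and for the well-counted genes of the 6 lists, with the range between quartiles (dark grey) and the middle 95% (light grey) of all 10861 well-counted genes. Outside the light band lie ADAM10 at -0.52 and ADAMTS16 at 0.65 among the members, and BCAN at -0.49 and JUNB at 0.61 among the lists.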

How the data were processed

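The members and lists were chosen with earlier results of these data known. The authors deposited raw gene counts and FPKM for 3 DU145 libraries. For 100% of the genes detected, the FPKM equalled, within 1%, the count over the product of the listed gene length and a constant of the library, so FPKM served only to compare levels between genes. Per the labels' processing notes the submitters named Bowtie2 2.0.6, TopHat2 2.0.9, Cufflinks 2.1.1 and Cuffdiff 2.1.1. The counting tool, its strand setting and its treatment of reads that match several genes are not given in the sources used here. All 58735 gene identifiers and positions matched GENCODE release 29 (GRCh38), which gave exon overlaps, shared sequence, GC content and the printed sequences. The GC content of a gene is that of its longest transcript. The labels name DMEM and the methods EMEM as the medium.

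Genes with at least 10 counts summed (19849) were tested with edgeR 4.0.16 (R 4.3.3; TMM scaling, glmQLFit, glmQLFTest), 2 libraries labelled knockdown against 1 control, with Benjamini-Hochberg adjustment over all of them, after a test of the script on simulated data. The fit had 1 residual degree of freedom and a common dispersion of 0.00719. Each line gave 1 library, so the spread behind the p-values comes only from the libraries labelled knockdown, read here as made with different shRNAs. This spread was shared by genes of like count (prior degrees of freedom Inf). A gene's own difference between these libraries therefore does not enter its p-value in this fit. Ratios of single libraries were scaled by TMM, with exact 95% intervals for 2 counts. Reads copied by PCR and carrying no molecular identifier cannot be taken as independent molecules. Such a ratio sets single libraries side by side, not conditions, and genes beyond 1.5-fold were counted. DESeq2 1.42.0, other scalings, other count minimums, other quasi-likelihood methods, removal of length and GC trends and leaving out each library labelled knockdown were the alternatives.

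Genes named are those with a mean of at least 100 counts, those past a threshold, every TIMP, the highest member of each role class, genes with under 10 summed counts as groups, and the 3 genes of each list with the largest fitted fold change among those with a mean of at least 100 counts. MMP13, ADAM32, the tetraspanins, FURIN, RECK, NOTCH1, NOTCH2, CDH1, CD44, LAMA3 and LAMB3 were named for their role or position, after their values were seen. A few marker and list genes are not reported here.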

Additional observations from a re-analysis of the deposited data

How the results depend on the processing

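ADAM10 at an adjusted p under 0.05 gave a count of 1 member by edgeR. The count stayed at 1 with DESeq2 size factors, with library totals alone and with a minimum of 1 count, and was 0 with a minimum of 30 counts, by the DESeq2 Wald test, by the newer quasi-likelihood method (chosen after seeing the data, since the installed default already is the older method) and with length and GC trends removed. The unadjusted threshold with the fold gave 1 member (ADAMTS8), and 0 with a minimum of 1 count, with a minimum of 30 counts (where ADAMTS8 is not tested) and by DESeq2. The cause of these differences was not tested. Over all genes, 70 passed the adjusted threshold, with 67 to 71 under the other scalings, 51 with a minimum of 1 count, 17 with a minimum of 30 counts, 6 by DESeq2, 18 by the newer method and 29 with the trends removed. The unadjusted threshold with the fold gave 492, with 493 and 495 under the other scalings and 489 with the trends removed. It gave 555 by the newer method, 530 with a minimum of 1 count, 264 with a minimum of 30 counts and 46 by DESeq2. The pathway lists, rerun as counts only, gave 0 at both thresholds in every alternative.

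Of the 28 tested members rerun by name, 19 kept the sign of the fitted log2 fold change in every alternative. With length and GC trends removed, ADAM17 moved to 0.12, ADAM22 to 0.10, ADAM9 to 0.07, ADAMTS13 to -0.02, MMP14 to -0.03 and MMP9 to -0.14, all of the other sign. Without the library labelled knockdown 2, ADAM23 was at 0.04 and MMP9 at -0.31, and without the library labelled knockdown 1, MMP1 was at -0.03 and ADAM32 at -0.09. ADAM10 was at -1.08 without the library labelled knockdown 1 and at -0.11 without the library labelled knockdown 2, so the second library sets its value. Depth limits the 20 tested members with a mean under 100 counts. No paired analysis was possible because the control has 1 library and shares no second replicate number with the libraries labelled knockdown.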
